A study of Mus musculus with 6 samples.

Results

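The genes described here are the 8 genes of major histocompatibility complex (MHC) class II antigen presentation named H2-Aa, H2-Ab1, H2-Eb1, H2-DMa, H2-DMb1, H2-DMb2, Cd74 and Ciita. They were taken by name from a deposited table of 54532 genes, and each name was found once. All 8 had reads in every library.

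MHC class II molecules are pairs of an alpha and a beta chain that carry peptides from taken-up proteins to the cell surface, where CD4+ T cells read them. The chains assemble on the invariant chain CD74, which blocks the groove until proteases in endosomes cut it down and the H2-DM dimer exchanges its last fragment for peptide. Dendritic cells, B cells and macrophages express these genes constantly, and interferon gamma can switch them on in other cells, in each case through the co-activator CIITA; in liver they are known from Kupffer cells, dendritic cells, B cells and sinusoidal endothelium.

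The series holds RNA sequencing of whole, untreated livers of 6 mice. The 3 controls carry floxed Notch1 alleles (Notch1fl/fl), and in the other 3 mice Notch1 was knocked out in hepatocytes, a design made to ask about Notch1 and hepatic thrombopoietin. The labels used here name no Cre driver, strain, sex or age. By elimination, the columns headed NC were read as the Notch1fl/fl livers. Libraries held 15612924 to 17511961 reads in genes, recovered from the deposited values. Notch1 itself measured 0.618, 0.965 and 0.854 FPKM (fragments per gene length, here scaled between livers by size factors and not by total reads) in controls 1 to 3 against 0.301, 0.540 and 0.292 in knockouts 1 to 3, without overlap (limma adjusted p = 0.257). In such bulk tissue, fewer cells of a type and less RNA per cell cannot be told apart.

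All 8 class II genes had a higher mean level in knockouts, as did 48.1% of all genes tested, and 0 of the 7 that were tested passed the threshold. The fit by limma covered 12022 genes on log2(FPKM + 1), those averaging 0.5 FPKM or more; Ciita was below that. In that fit 3 genes, or 0.025%, passed at an adjusted p of 0.05 (0.00832% as higher in knockouts), and 0 of them were class II genes. With the replicate number as a block 0 genes passed. At an unadjusted p under 0.05, 5 of the 7 (H2-Eb1, H2-Aa, H2-DMb1, Cd74 and H2-Ab1) were higher in knockouts, where 6.83% of all genes tested were; 0 were lower, where 7.06% of all were. For 3 of the 8 genes (H2-Eb1, H2-Aa and H2-DMb1) every knockout lay above every control, which held for 9.2% of genes tested. The median log2 difference of the 7 was 0.67, and that of all genes tested was -0.01.

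H2-Aa and H2-Ab1 encode the alpha and beta chains of the I-A molecule. H2-Aa (chromosome 17, 34282744 to 34287827, GRCm38, minus strand) measured 9.96, 14.2 and 17.2 FPKM in controls 1 to 3 against 19.0, 23.4 and 26.8 in knockouts 1 to 3. Control 1 was the lowest liver and the groups did not overlap. The means, 13.8 ± 3.64 and 23.1 ± 3.89 (SD, n = 3), were 1.67-fold apart, and the log2 difference was 0.72 (SE 0.21, 95% interval 0.23 to 1.21, limma adjusted p = 0.221).

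H2-Ab1 (chromosome 17, 34263209 to 34269418, plus strand) measured 9.49, 11.5 and 16.9 FPKM across controls and 15.4, 27.2 and 22.3 in knockouts. Knockout 1 lay below control 3, so the groups overlapped, while knockouts 2 and 3 lay above every control. The ratio of means was 1.71 (12.6 ± 3.84 to 21.7 ± 5.93 FPKM, SD, n = 3), with a log2 difference of 0.73 (95% interval 0.13 to 1.34, limma adjusted p = 0.283).

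H2-Eb1 encodes the beta chain of the I-E molecule, which pairs with the E alpha chain. The gene (chromosome 17, 34305877 to 34316199, plus strand) measured 14.9, 18.0 and 25.3 FPKM across controls and 28.0, 36.7 and 39.6 in knockouts, without overlap. The means were 1.79-fold apart (19.4 ± 5.34 and 34.8 ± 6.04 FPKM, SD, n = 3). Its log2 difference of 0.83 (95% interval 0.33 to 1.33) was the largest of the 7 and had the smallest p, and it did not pass (limma adjusted p = 0.182). The E alpha gene, listed in the table as the pseudogene H2-Ea-ps, was at 0 reads in all 6 livers, so RNA of the beta chain was measured without RNA of its partner. H2-Eb2, a second E beta gene, had 4, 0 and 1 reads in controls against 0 in each knockout.

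Cd74, the invariant chain (chromosome 18, 60803848 to 60812646), was the member with the highest level per length. It measured 38.8, 45.8 and 64.4 FPKM across controls and 60.7, 88.8 and 86.7 in knockouts. Knockout 1 was below control 3, and the other knockouts were above all controls. The ratio of means was 1.59 (49.6 ± 13.2 to 78.7 ± 15.7 FPKM, SD, n = 3) and the log2 difference 0.67 (95% interval 0.13 to 1.2, limma adjusted p = 0.275), on 820 to 2509 reads per liver.

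The H2-DM genes encode the peptide exchanger. H2-DMb1, a beta chain gene (chromosome 17, 34153072 to 34160230), measured 1.66, 1.77 and 2.03 FPKM across controls and 2.16, 3.22 and 2.95 in knockouts, without overlap (ratio of means 1.53, log2 difference 0.42, 95% interval 0.10 to 0.73, limma adjusted p = 0.253). H2-DMa, the alpha chain gene (chromosome 17, 34135182 to 34139101), measured 1.83, 2.63 and 3.08 in controls against 1.34, 3.95 and 2.78 in knockouts. Knockout 1 was the lowest of all 6 livers and knockout 2 the highest. The log2 difference of H2-DMa was 0.02 (95% interval -0.63 to 0.68, limma adjusted p = 0.981), and it was not tested against those of the 3 classical chains. Its interval depends on the pseudocount: at a pseudocount of 0.1 the SE was 0.38, against 0.28 here. H2-DMb2, the other beta chain gene (chromosome 17, 34143307 to 34151553), measured 0.585, 0.548 and 0.211 FPKM across controls and 0.469, 0.671 and 0.650 in knockouts, on 6 to 23 reads (log2 difference 0.15, 95% interval -0.18 to 0.48, limma adjusted p = 0.684). H2-DMb1 and H2-DMb2 are near-identical copies, so the split of reads between them is uncertain.

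Ciita, the co-activator that class II promoters depend on (chromosome 16, 10480059 to 10528418), was the lowest member. It measured 0.0629, 0.0982 and 0.145 FPKM across controls and 0.105, 0.256 and 0.209 in knockouts, from 9, 15 and 23 reads against 15, 49 and 34. Knockout 1 lay among the controls and the other knockouts above them. Means were 0.102 ± 0.0413 and 0.190 ± 0.0773 FPKM (SD, n = 3). With the filter lowered to a mean of 0.1 FPKM the log2 difference was 0.11, a scale on which so low a gene can barely move (limma adjusted p = 0.645). Dexi, on the opposite strand, overlaps the gene from 10502531 to 10528418, and without a stated strand setting reads there cannot be assigned to either gene with certainty.

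**Figure D1:**
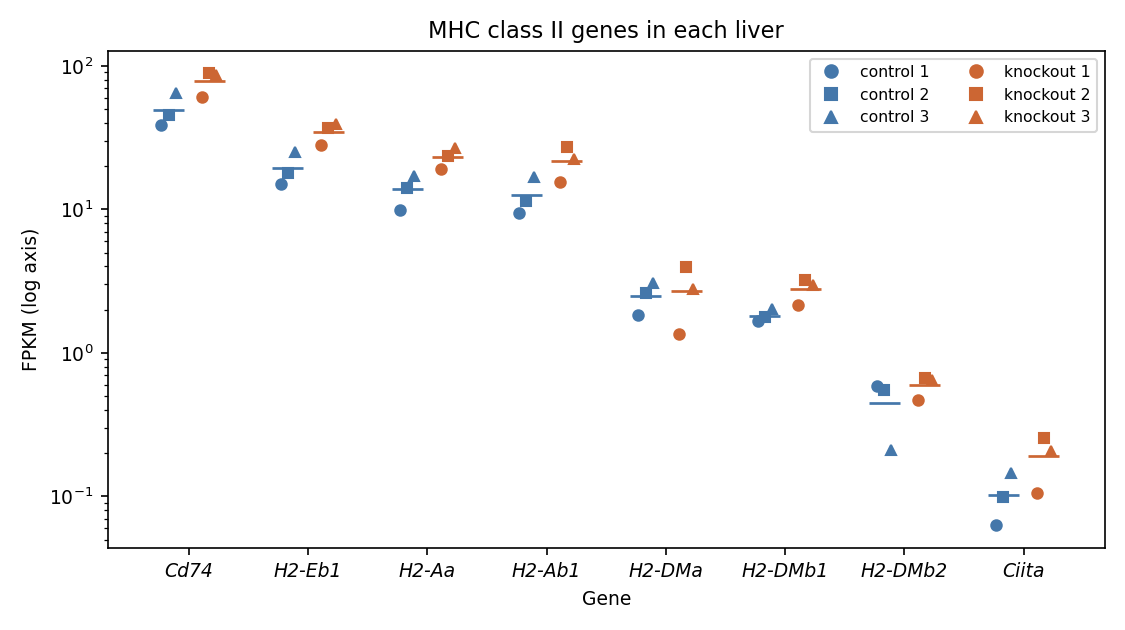
FPKM of the 8 class II genes in each liver on a log axis; each point is 1 liver (blue controls, orange knockouts, shape gives the replicate number) and each bar the mean of 3 livers. Cd74 is highest at 38.8 to 88.8 FPKM and Ciita lowest at 0.0629 to 0.256, and control 1 and knockout 1 are the lowest of their groups for Cd74 and the 3 classical chains.

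**Figure D2:**
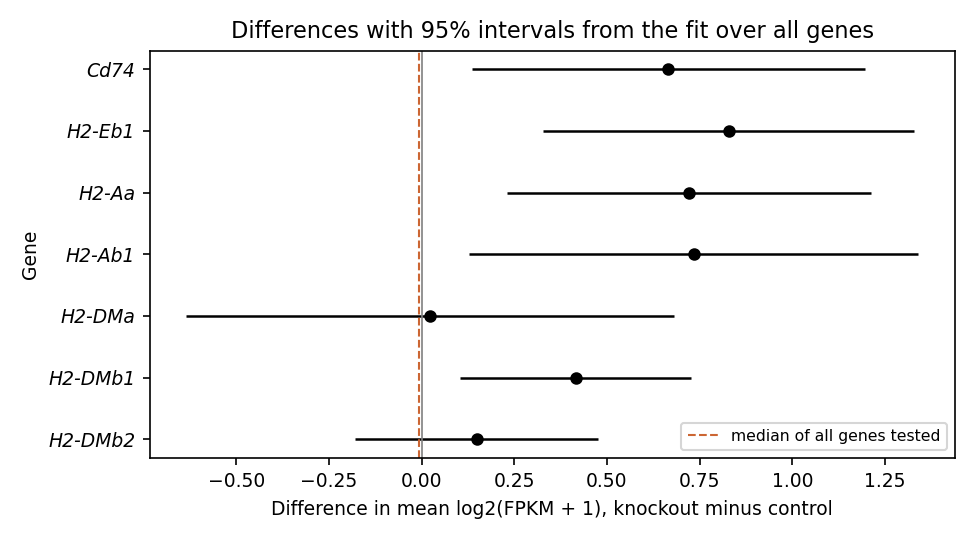
Differences in mean log2(FPKM + 1), knockout minus control, for the 7 tested class II genes, with 95% intervals from the fit across 12022 genes (n = 3 livers per group). The intervals of H2-DMa and H2-DMb2 include 0 and those of the other 5 do not, before adjustment; the dashed line is the median of all genes tested, -0.01.

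Levels per length (FPKM) were ordered alike in most livers. Cd74 was above H2-Eb1, and H2-Eb1 above H2-Aa and H2-Ab1, in 6 of 6 livers. H2-Aa was above H2-Ab1 in 5 of 6 livers, with knockout 2 reversed, and H2-DMa above H2-DMb1 in 4 of 6, so neither neighbouring pair was ordered beyond the spread between livers. The H2-DM genes lay below the classical chains, and Ciita below every other member, in all 6 livers.

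Proportions between the chains were taken within each liver. H2-Ab1 per H2-Aa, as a ratio of FPKM, was 0.953, 0.813 and 0.983 in controls against 0.812, 1.16 and 0.833 in knockouts. Cd74 per H2-Aa was 3.62 ± 0.345 in controls against 3.41 ± 0.336 in knockouts (SD, n = 3). Both ratios overlapped between the groups. H2-Aa per H2-DMa was 5.45, 5.39 and 5.59 in controls against 14.1, 5.92 and 9.63 in knockouts. That ratio did not overlap, and it was highest in knockout 1, where H2-DMa had 33 reads. No other ratio computed between members separated the groups, and how often ratios separate was not computed. H2-Aa per H2-DMb1 overlapped, at 5.997, 8.019 and 8.495 in controls against 8.799, 7.256 and 9.065 in knockouts. H2-Eb1 per H2-Ab1, H2-DMa per H2-DMb1 and H2-DMb2 per H2-DMb1 overlapped too.

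The livers also lined up across members. Control 1 was the lowest control for 7 of the 8 genes and control 3 the highest control for 7, with H2-DMb2 the exception in both. Knockout 1 was the lowest knockout for all 8. Summed over H2-Aa, H2-Ab1, H2-Eb1 and Cd74, the level was 73.1, 89.4 and 124 FPKM in controls 1 to 3 against 123, 176 and 175 in knockouts 1 to 3, so control 3 and knockout 1 met in the middle. Between livers of the same number, 6 of the 8 genes and this sum were higher in the knockout for all 3 numbers, which held for 18.9% of genes tested. H2-DMa and H2-DMb2 were the exceptions. The labels state no pairing of livers by number. After each group's mean was removed, the 4 genes still followed each other over the 6 livers, with Pearson's r on log2(FPKM + 1) between 0.83 (H2-Aa with H2-Ab1) and 0.98 (H2-Eb1 with Cd74), as a description of libraries that share their depth. H2-DMa followed Ciita (0.99) and H2-DMb1 (0.97). H2-DMb2, on few reads, followed no other member, with r between -0.48 and 0.05.

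Promoters are shown here because the levels of the classical chains and Cd74 followed each other across the livers. Class II promoters are known for an X box, bound by the RFX complex and CREB, and a Y box, bound by NF-Y, at a fixed distance. RefSeq windows (GRCm38.p6, 250 bases before each start) were read for 5 of the 8 members: H2-Aa, H2-Eb1, H2-DMa, H2-DMb1 and H2-DMb2. No window was read for H2-Ab1, Cd74 or Ciita, so the promoters of these members are not described. The stretches below run 5′ to 3′ on the gene's strand from base -135 to base -16 before the RefSeq start. Capitals mark AAC in the X box, the letters TGANG just after it, and the inverted CCAAT letters GATTGG of the Y box.
H2-Aa (chr17:34287839-34287958, minus strand): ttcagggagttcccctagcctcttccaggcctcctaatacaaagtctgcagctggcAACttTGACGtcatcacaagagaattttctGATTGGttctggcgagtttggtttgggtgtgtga
H2-Eb1 (chr17:34305732-34305851, plus strand): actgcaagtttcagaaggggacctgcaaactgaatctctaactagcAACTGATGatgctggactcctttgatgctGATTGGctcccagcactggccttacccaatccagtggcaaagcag
H2-DMb2 (chr17:34145114-34145233, plus strand): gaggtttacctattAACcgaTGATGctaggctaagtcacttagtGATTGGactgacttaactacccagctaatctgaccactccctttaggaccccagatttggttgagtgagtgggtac

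In H2-Aa the AAC letters begin at base -79 and GATTGG at -49, in H2-Eb1 at -89 and -60, and in H2-DMb2 at -121 and -91. H2-DMb1 (not printed) has them at -92 and -62. The motif was spelled from these sequences after they were read, as AAC, then 24 to 27 bases, then GATTGG, on either strand. AAC and GATTGG at that distance were found in 0.77% of 32851 RefSeq windows, and GATTGG alone in 14.6%. With TGANG added within 6 bases of AAC, 17 windows (0.0517%) matched, and 6 of them belonged to class II genes: H2-Aa, H2-Eb1, H2-DMb1, H2-DMb2, H2-Ob and H2-Eb2. H2-Oa had the spaced pair without TGANG. H2-DMa had RefSeq windows at 34122582 to 34122881 and at 34125268 to 34125567, both before the start of the deposited gene at 34135182, and neither held the pair. A match describes letters and not binding. H2-Eb2, which matches, had at most 4 reads in any liver, and H2-DMb2, which also matches, followed no other member in level.

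**Figure D3:**
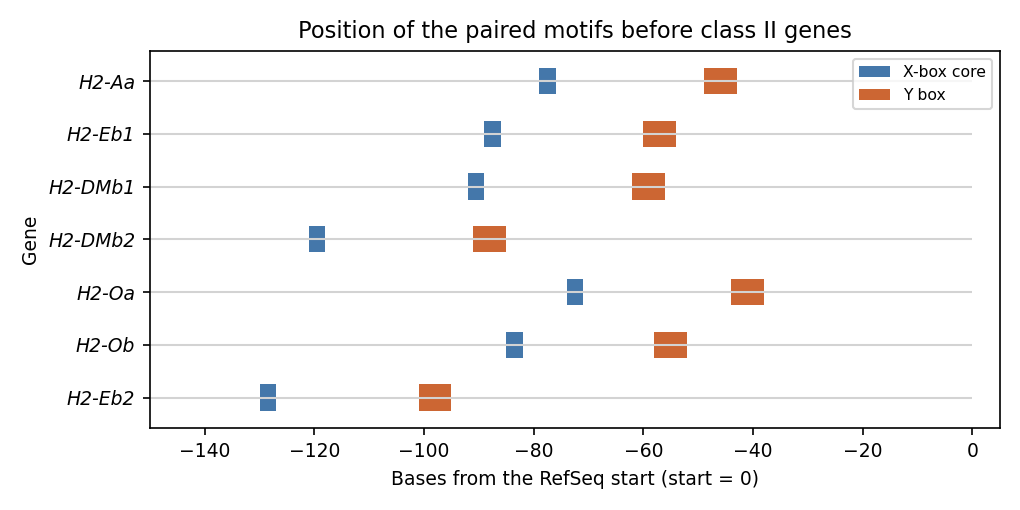
Positions of the X-box core letters (blue) and the Y-box letters (orange) before the RefSeq start of 7 class II genes, in bases, with the start at 0. The search accepted only gaps of 24 to 27 bases, and only genes with such a pair are drawn, so the like spacing is not a result. The distance to the start was free within the window: the Y box begins 44 to 101 bases before it.

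Among the 7 factors known to bind these boxes, means were higher for some and lower for others. Rfx5, the DNA-binding subunit of the RFX complex, measured 0.582, 0.897 and 0.733 FPKM across controls and 0.681, 1.05 and 0.734 in knockouts. Its partners Rfxap (5.27 ± 0.406 against 4.85 ± 0.213 FPKM, SD, n = 3) and Rfxank (3.04 ± 0.763 against 2.20 ± 0.145) had lower means in knockouts, as did Creb1 (1.27 ± 0.144 against 1.12 ± 0.0322) and Nfyb (5.85 ± 0.0491 against 5.27 ± 0.494). Nfya and Nfyc, the other NF-Y subunits, had ratios of means of 1.16 and 1.09. Of the 7, 3 had higher and 4 lower means, 0 passed over all genes (limma adjusted p from 0.389 to 0.857), and 0 had an unadjusted p under 0.05, against 13.9% of all genes tested.

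The path from the interferon gamma receptor to Ciita was measured in 8 genes, of which 7 were tested and 0 passed. Irf1, a transcription factor that acts on the Ciita promoter, measured 3.15, 3.49 and 3.00 FPKM across controls and 4.81, 4.67 and 3.35 in knockouts (limma adjusted p = 0.357). Knockout 3 lay among the controls. Usf1, which binds the same promoter, measured 4.94 ± 0.769 against 6.34 ± 0.948 (SD, n = 3). The median log2 difference over the 7 was 0.06.

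Of 18 listed targets of interferon gamma, 17 were tested, 7 with higher and 10 with lower means, and 0 passed. Gbp2, a guanylate-binding protein, measured 2.44, 2.63 and 4.47 FPKM across controls and 6.88, 12.8 and 9.46 in knockouts. The groups did not overlap and the means were 3.06-fold apart (log2 difference 1.35, limma adjusted p = 0.114). Psmb8, an immunoproteasome subunit encoded between the class II genes, measured 6.89 ± 0.545 against 8.66 ± 0.719 (SD, n = 3). Gbp6, the chemokine gene Cxcl10 and the GTPase gene Iigp1 had lower means in knockouts, with ratios of 0.619, 0.626 and 0.773. The list's median log2 difference was -0.08.

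Of 12 genes of endosomal processing, 11 were tested, 5 with higher and 6 with lower means, and 0 had an unadjusted p under 0.05. Ctss, the cathepsin that makes the last cuts in the invariant chain in many antigen-presenting cells, named for that role, measured 36.4 ± 1.46 FPKM across controls and 37.2 ± 8.10 in knockouts (SD, n = 3). Ctsc and Ctsh, other cathepsins, had ratios of means of 1.22 and 0.89, and Cst3, the cysteine protease inhibitor cystatin C, 1.11. Summed over the 12 genes the level was 615 to 675 FPKM across controls and 618 to 682 in knockouts.

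Of 11 genes of class II trafficking and turnover, 4 had higher and 7 lower means, and 0 passed. March1, a ubiquitin ligase that removes class II molecules from the surface of dendritic and B cells, measured 0.392, 0.524 and 0.404 FPKM across controls and 0.814, 0.656 and 0.589 in knockouts, without overlap (ratio of means 1.56, limma adjusted p = 0.397). March8, a broadly expressed relative, measured 11.9 ± 0.605 against 10.5 ± 0.665 (SD, n = 3). Cd9, a tetraspanin that associates with class II molecules, measured 6.62 ± 0.361 against 9.55 ± 2.15, and Lamp2, a lysosomal membrane protein, 77.9 ± 6.62 against 63.0 ± 12.1. Among 7 co-stimulatory genes only Cd86 was high enough to be tested.

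H2-Oa and H2-Ob encode H2-O, the inhibitor of H2-DM, and are known mainly from B cells. H2-Ob measured 0.148, 0.119 and 0.210 FPKM across controls and 0.170, 0.554 and 0.315 in knockouts, on 6 to 35 reads. H2-Oa had 6, 5 and 1 reads in controls against 2, 2 and 1 in knockouts. Both were too low for the fit.

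Sums of leukocyte, Kupffer cell, dendritic cell and B cell markers overlapped between the groups. The 10 leukocyte markers summed to 91.8 to 114 FPKM across controls and 105 to 128 in knockouts, with 7 higher and 3 lower means; Coro1a, a leukocyte actin-binding protein, measured 2.84 ± 0.542 against 3.67 ± 0.304 FPKM and Laptm5 and Lcp1 had ratios of means of 1.13 and 0.892. The 13 Kupffer cell and macrophage markers summed to 318 to 393 FPKM across controls and 305 to 411 in knockouts. Within that list Marco, a scavenger receptor, measured 3.01 ± 0.543 against 5.03 ± 1.32 FPKM (SD, n = 3), Mrc1, the mannose receptor, 7.32 ± 0.557 against 5.20 ± 0.516, and Clec4f, a Kupffer cell lectin, 63.9 ± 9.10 against 49.6 ± 12.8. Cx3cr1, a chemokine receptor, had 1 read in control 1 and 33 to 105 reads in the other livers (0.353 ± 0.3003 against 0.9897 ± 0.398 FPKM). Of the 13 markers 0 passed the threshold, with 7 higher and 6 lower means.

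Dendritic cell markers were low: 4 of 13 were tested, and the sum was 6.22 to 6.66 FPKM across controls and 5.25 to 7.43 in knockouts. Flt3 was at 0 in control 1 and Cd209a at 0 in knockout 1. Zbtb46, which marks classical dendritic cells, measured 0.513 ± 0.0039 against 0.515 ± 0.169 FPKM (SD, n = 3), and Batf3 0.657 ± 0.395 against 0.421 ± 0.193. B cell markers summed to 18.9 to 23.2 FPKM across controls and 15.9 to 20.8 in knockouts. Cd79b, a subunit of the B cell receptor, measured 1.40 ± 0.127 against 1.18 ± 0.187, and Ighm, the IgM heavy chain, had a ratio of means of 0.851. Markers of sinusoidal endothelium summed to 72.1 to 92.9 FPKM across controls and 69.4 to 89.3 in knockouts. Relative to the Kupffer cell and macrophage sum, the summed classical chains and Cd74 were 0.194, 0.228 and 0.390 in controls against 0.299, 0.578 and 0.513 in knockouts, so the groups overlapped by that measure as well. Between livers of the same number, a pairing that the labels do not state, the ratio was higher in the knockout for all 3 numbers. Among single genes tested, 18.9% were higher in that way, and no such share was computed for ratios.

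Markers of mesothelium, the epithelium that covers the liver surface, had higher means in knockouts. Of 9 markers 8 were tested, all 8 with higher means in knockouts, 7 at an unadjusted p under 0.05 (6.83% of all genes tested were higher at that level), and 0 past the threshold. Msln, the surface protein mesothelin, measured 2.02, 3.90 and 19.1 FPKM in controls 1 to 3 against 36.6, 60.7 and 41.8 in knockouts 1 to 3 (limma adjusted p = 0.165). Control 3 stood above the other controls, as it did by smaller folds for 7 of the 8 class II genes, and knockout 1 was the lowest knockout. Upk3b, Gpm6a, Upk1b and Lrrn4 had ratios of means of 4.79, 5.24, 4.02 and 4.49. Control 3 lowered these folds: without it they were 13.02, 12.1, 7.27 and 14.5, and that of Msln was 15.7 rather than 5.55. Hepatocytes also express Krt8 and Krt18; without them, a split made after the values were seen, the list summed to 4.96, 12.4 and 50.7 FPKM across controls and 85.0, 145 and 114 in knockouts, and none of its 7 genes was at 0 in any liver. Whether they had a part in the class II difference was not tested.

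The 7 bile duct markers summed to 12.9 to 16.1 FPKM over controls, with 24.2 to 33.3 in knockouts, but they did not all differ. For 4 every knockout lay above every control, which held for 9.2% of genes tested, and 3 overlapped. Of those 4, 3 were high enough to be tested. Krt7 measured 0.217, 0.337 and 1.26 FPKM across controls and 2.49, 4.94 and 3.13 in knockouts, Krt19 3.07 ± 3.15 against 10.3 ± 2.35 (SD, n = 3), and Sox9, a transcription factor of duct cells, 0.735 ± 0.174 against 1.49 ± 0.330. Spp1, osteopontin, the most abundant of the list, overlapped at 13.95, 10.1 and 5.55 FPKM over controls and 11.5, 6.54 and 17.6 in knockouts (limma adjusted p = 0.845). Both keratins are also expressed in mesothelium. Without control 3 the ratio of means was 12.7 rather than 5.81 for Krt7 and 8.16 rather than 3.35 for Krt19. Of the 4 duct markers tested, 0 passed, and their part in the class II difference was not tested either. Monocyte markers (9.40 to 15.2 against 12.1 to 17.6 FPKM summed) and T and NK cell markers (5.32 to 6.77 against 4.13 to 5.85) overlapped. Summed hepatocyte markers were lower in knockouts without overlap, at 45881 to 54330 FPKM across controls and 33055 to 43422 in knockouts, and albumin made up 61.9% to 69.1% of each sum. For 3 of the 9 markers every knockout lay below every control, which held for 10.6% of genes tested, while 6 overlapped and 0 passed. Cyp2e1, a cytochrome P450, had a ratio of means of 0.532 and Tat, a tyrosine-degrading enzyme, one of 1.39. The part of these levels in the class II values was not tested.

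**Figure D4:**
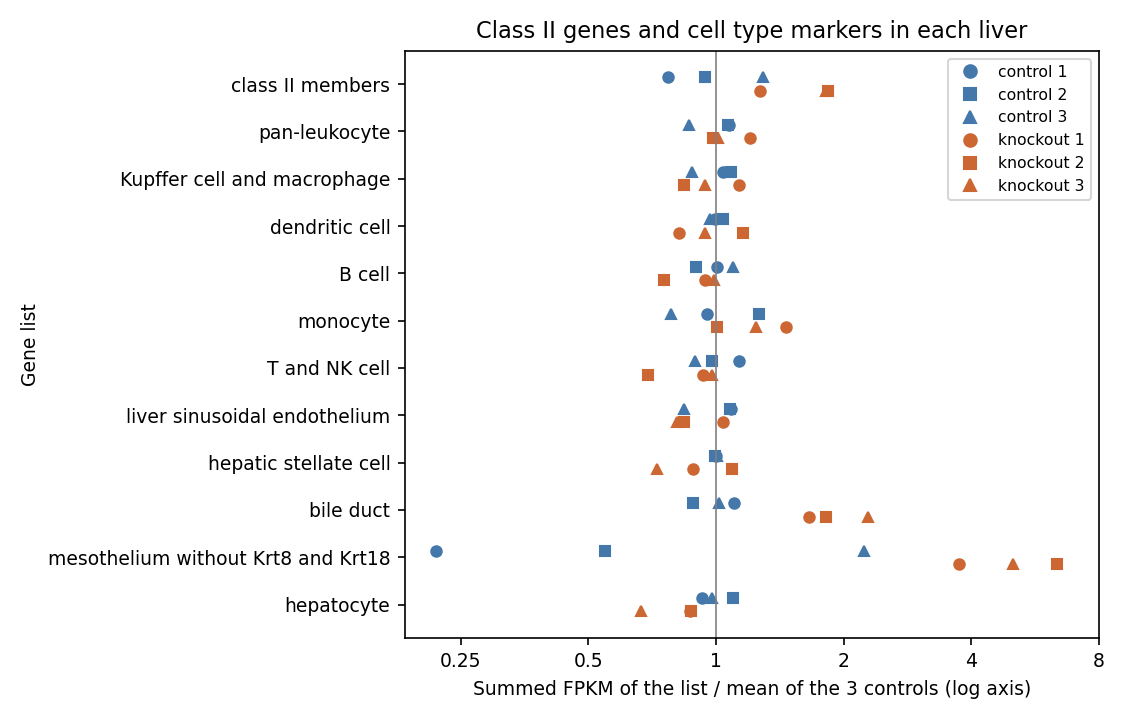
Summed FPKM of the class II genes and of each marker list in each liver, divided by the mean of the 3 controls (log axis, blue controls and orange knockouts, shape gives the replicate number). Leukocyte, Kupffer cell, dendritic cell and B cell sums lie around 1 in both groups. The class II sums overlap, at 77.3 to 129 FPKM in controls (mean 100.3) and 127 to 184 in knockouts. Mesothelial markers without Krt8 and Krt18 lie farthest from 1.

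The genes outside the list whose levels followed the class II genes most closely were ranked over the 6 livers, by Pearson's r of log2(FPKM + 1) with the mean of H2-Aa, H2-Ab1, H2-Eb1 and Cd74. Among 10069 genes averaging 1 FPKM or more, the highest were Tpr (nuclear pore basket protein, r = 0.999), Spata13 (0.997), Csrp1 (0.996), Tomm40l (0.993), Slc43a3 (0.992) and Efemp2 (0.992). Csrp1, a LIM domain protein, measured 9.61, 12.4 and 17.1 FPKM across controls and 19.0, 30.7 and 30.0 in knockouts. These correlations over 6 livers, which share the contrast of the groups, are a description. By the same measure Krt8 ranked 20, Gpm6a 27, Upk1b 28 and Lrrn4 29, and Gbp2 120. Leukocyte markers went both ways: 4 of the 9 ranked had an r above 0 and 5 below, from -0.99 (Lcp1) to 0.83 (Coro1a). Of 12 ranked Kupffer cell and macrophage markers 3 were above 0 and 9 below, from -0.94 (Mrc1) to 0.82 (Marco).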

How the data were processed

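Per the labels' protocols, whole-liver poly-A RNA of 3 control and 3 knockout mice was measured. The authors deposited FPKM for 54532 genes; HISAT2 2.0.5, featureCounts 1.5.0-p3 and GRCm38 are named in the submitters' processing notes, and how FPKM was computed is not stated there. Multiplied by gene length, 100% of values in each library came out as whole reads (tolerance 0.1 read), which gave the depth. The FPKM of 1 read times a median-of-ratios size factor was 0.0609 per kilobase in all 6 libraries, so the deposited values are scaled by such factors and not by total reads; 3 reads in a gene of 1 kilobase are 0.150 to 0.201 FPKM. Groups and numbers come from sample titles. Nothing states separate litters or batches, so the p-values refer to the spread between these samples.

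The 12022 genes averaging 0.5 FPKM or more were compared on log2(FPKM + 1) with limma 3.58.1 (eBayes with trend) in R 4.3.3, two-sided, with Benjamini-Hochberg adjustment over all genes and a threshold of 0.05; the pseudocount understates changes of low genes. The fit was also run on simulated reads that gave every gene the same spread between livers, and nothing here rests on that run. Deviations from the group means of same-numbered livers correlated across genes at 0.31, 0.16 and 0.10, and control 3 with knockout 2 at 0.11; the numbers served as a block in an alternative only. Members, lists and tests were chosen with earlier results of these data known. Named genes were all members, all factors binding class II promoters, up to 5 genes of smallest p per other list, markers needed to state zeros, the 6 genes most like class II, the Notch1 check, and Ctss, named outside the rule. March1 and March8 were matched by identifier, since their names had become dates. Promoters were read from RefSeq windows of GRCm38.p6. Alternatives covered pseudocount, filter, scaling, eBayes, block, single livers and limma voom.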

Additional observations from a re-analysis of the deposited data

How the results depend on the processing

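Over 16 refits 0 class II genes passed the threshold in any. H2-Aa, H2-Ab1, H2-Eb1, Cd74, H2-DMb1 and H2-DMb2 had a higher mean in the knockouts in every refit that included them; leaving out single livers gave log2 differences of 0.52 to 0.89, 0.56 to 0.95, 0.66 to 1.03, 0.51 to 0.87, 0.33 to 0.54 and 0.03 to 0.22. H2-DMa changed direction: without single livers its log2 difference ranged from -0.22 (without knockout 2) to 0.32, with -0.12 without control 1 and -0.03 without knockout 3. With the replicate block, adjusted p was 0.0993 for H2-Aa and H2-Eb1 (limma), the lowest over their refits, where the highest were 0.453 and 0.437; the block changed no call of a class II gene.

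The count over all genes, 3, became 1 with a pseudocount of 0.1, 0 without a filter, 0 with the replicate block, 15 with limma voom on recovered reads (chosen after the data were seen) and 0 to 58 when single livers were left out, the highest without control 3 and 29 without knockout 2. Without control 3, Msln, Krt19, Upk3b, Lrrn4 and Upk1b passed (limma adjusted p from 0.0233 to 0.0464) and class II genes did not. Among 51 other named genes, 9 of 808 refits changed sign: the log2 difference of Rfx5 without single livers ranged from -0.0212 (without knockout 2) to 0.133, that of Zbtb46 from -0.0643 to 0.0907 (without knockout 1) and that of Ctss from -0.13 to 0.18 (below 0 without control 3, knockout 1 or knockout 3), that of Spp1 from -0.0941 (without control 3; -0.0808 without knockout 3) to 0.57, and scaling by total reads gave Rfxap 0.0215 and Zbtb46 0.0512. Why these values moved was not tested. The planned edgeR test was not run, since the deposited unit is FPKM. H2-DMb2 (6 to 23 reads) and Ciita (9 to 49 reads) are limited by depth.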
